A study of Homo sapiens with 22 samples.

Results

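Transcripts of 28 genes of cholesterol and fatty acid synthesis were followed in HUDEP-2 cells, an immortalized line of human erythroid progenitors. The genes were taken by symbol as a listed set of pathway members, with no threshold on a measured value, but with earlier results of these data known. All 28 were found among the 59087 gene names of both count tables. They comprise 18 enzymes that build cholesterol from acetyl-CoA (7 up to farnesyl diphosphate, 3 from there to lanosterol and 8 from lanosterol onward), 5 genes of sterol sensing and transport, and 5 enzymes of fatty acid synthesis. RNA-Seq libraries came from separate experiments on separate knockouts. The H2A.X experiment held 2 WT and 3 H2A.X KO libraries at each of D0 and D6, which makes 10 libraries, and the BAZ1B experiment held 3 WT and 3 BAZ1B KO libraries at each day, which makes 12. H2A.X is a histone variant and BAZ1B is a kinase that phosphorylates it. The KO subclones grew from single cells in which a pair of CRISPR/Cas9 guides had cut the gene, so that each KO library came from a clone. The paper calls the WT cells of the H2A.X RNA-Seq subclones too, and states that its WT subclones were handled like the KO lines. For the BAZ1B RNA-Seq it speaks of WT cells. D0 cells were in expansion medium with stem cell factor, erythropoietin, dexamethasone and doxycycline. D6 cells had spent 6 days in maturation medium with plasma, holo-transferrin, insulin, heparin, stem cell factor, erythropoietin and doxycycline and no dexamethasone, so the day and the medium cannot be told apart.

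Cholesterol is made from acetyl-CoA through mevalonate, farnesyl diphosphate, squalene and lanosterol, and fatty acids are made from the same acetyl-CoA through malonyl-CoA. Transcription of both pathways is set in large part by the SREBP factors, which are membrane proteins encoded by SREBF1 and SREBF2. When the endoplasmic reticulum holds little sterol, SCAP escorts them to the Golgi for cleavage, and when sterol is plentiful INSIG1 retains them. Erythroid cells exchange cholesterol with the medium and have a membrane rich in it, and they stop dividing and lose their organelles as they mature.

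The regions upstream of the genes share sequence features that the choice of genes did not use. RefSeq windows of 300 bases in GRCh38.p14, from 250 bases before to 50 after a gene start, were found for 24 of the 28 genes, 6 of them with several starts, which gave 32 windows. The motif CCAAT, bound by NF-Y, a factor known to act beside the SREBPs, was read on either strand in 23 of the 32 windows (71.9%) and in 34.6% of all 35116 windows in the same collection. GGGCGG, the core of Sp1 sites, was in 29 windows (90.6%) against 45% of all. The E-box CACGTG was in 5 windows (15.6%) against 7.26%. The sterol regulatory element core TCACNCCAC was in 1 window (3.12%), that of SREBF2, against 1.13% of all windows, and these letters are a narrow version of the element, so their absence says only that they are not in the window. Windows of the same gene overlap in part, and a match is a description and not evidence of binding. The collection was not limited to genes expressed in these cells or matched for GC content, so its shares are a rough background.

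The 200 bases just upstream of the start are shown for SREBF2, the holder of the sterol element core, and for the 5 genes with a window whose BAZ1B KO effect differed between days (described further on). For genes with several starts the most upstream was taken. They are written 5′ to 3′ on the strand of the gene, with the 4 motifs, read on either strand, in capitals. SREBF2 lies on the plus strand at chr22:41832905-41833104, HMGCS1 on the minus strand at chr5:43313413-43313612, LSS on the minus strand at chr21:46228775-46228974, EBP on the plus strand at chrX:48521608-48521807, DHCR7 on the minus strand at chr11:71449044-71449243, and ELOVL6 on the minus strand at chr4:110198616-110198815.
SREBF2: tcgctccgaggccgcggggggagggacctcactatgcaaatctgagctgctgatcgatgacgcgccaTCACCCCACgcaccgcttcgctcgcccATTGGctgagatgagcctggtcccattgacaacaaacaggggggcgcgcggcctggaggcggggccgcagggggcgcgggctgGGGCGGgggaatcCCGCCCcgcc
HMGCS1: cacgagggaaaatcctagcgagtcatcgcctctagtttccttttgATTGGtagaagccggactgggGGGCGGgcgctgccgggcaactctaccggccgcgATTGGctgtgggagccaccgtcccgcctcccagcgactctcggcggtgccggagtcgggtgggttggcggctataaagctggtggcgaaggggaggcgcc
LSS: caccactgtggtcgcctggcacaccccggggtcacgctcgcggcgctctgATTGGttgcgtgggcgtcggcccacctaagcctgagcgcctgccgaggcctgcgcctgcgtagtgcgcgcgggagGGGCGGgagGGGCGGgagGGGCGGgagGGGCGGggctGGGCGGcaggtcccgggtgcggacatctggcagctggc
EBP: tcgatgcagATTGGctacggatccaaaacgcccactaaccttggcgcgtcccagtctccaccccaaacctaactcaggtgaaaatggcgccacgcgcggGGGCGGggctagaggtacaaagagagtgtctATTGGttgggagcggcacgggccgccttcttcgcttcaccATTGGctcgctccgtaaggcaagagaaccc
DHCR7: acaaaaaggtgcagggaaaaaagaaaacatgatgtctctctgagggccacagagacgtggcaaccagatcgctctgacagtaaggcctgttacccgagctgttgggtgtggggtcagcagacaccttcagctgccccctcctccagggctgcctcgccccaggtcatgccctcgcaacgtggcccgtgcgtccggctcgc
ELOVL6: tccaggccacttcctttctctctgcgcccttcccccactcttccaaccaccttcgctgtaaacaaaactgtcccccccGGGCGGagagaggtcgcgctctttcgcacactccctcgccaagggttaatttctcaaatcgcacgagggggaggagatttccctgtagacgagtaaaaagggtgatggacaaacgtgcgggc
CCAAT or its complement ATTGG stands in the SREBF2, HMGCS1, LSS and EBP stretches, and LSS carries a series of closely spaced GGGCGG letters. The DHCR7 stretch at this start holds none of the 4 motifs. DHCR7 has 2 windows, and the other, which is not shown, holds both CCAAT and GGGCGG.

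The files gave raw read counts per gene, between 11910141 and 21013004 per library in the H2A.X experiment and between 33199408 and 41273244 in the BAZ1B experiment. The values below are normalized counts, that is reads scaled to the mean effective library size of the experiment. Calls rest on edgeR's quasi-likelihood test with a Benjamini-Hochberg adjusted p below 0.05 over all genes tested, which were 13236 for H2A.X and 13879 for BAZ1B. All 28 genes passed the filter on low counts in both. The study counts the libraries of a group as separate cell cultures. The p-values measure the spread between them, which was larger in the H2A.X experiment (biological coefficient of variation 0.239) than in the BAZ1B experiment (0.0865). The targeted transcripts were lower but present in KO. H2AFX, the older symbol of the H2A.X gene, had a mean of 627 normalized counts in KO against 1772 in WT at D0 and 719 against 2069 at D6, and BAZ1B had 7418 against 9813 and 7077 against 9223. Reads from a deleted allele can still be counted, so these values do not measure protein. All 18 erythroid markers listed were detected in both experiments. Of 7 megakaryocyte and 9 other white cell markers, 6 each had at most 3 reads in every library, as did 7 of 15 mast cell and eosinophil markers in the H2A.X libraries and 6 in the BAZ1B libraries. The rest were not all low. In BAZ1B WT at D0 the mast cell and eosinophil markers summed to 43847 to 46308 normalized counts. The megakaryocyte markers summed to 2719 to 2836 there, the other white cell markers to 1317 to 1487 and the erythroid markers to 496690 to 536665.

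At the start, the genes spanned a wide range of levels. In WT of the BAZ1B experiment at D0, SQLE, the squalene epoxidase, stood at 140 ± 2.9 CPM per kilobase of exon (SD, n = 3) and SCD, the stearoyl-CoA desaturase, at 134 ± 4.5, and these did not differ beyond their spread. ACLY, which cleaves citrate to acetyl-CoA, followed at 95.4 ± 1.4, FDFT1, the squalene synthase, at 85.5 ± 1.5 and HMGCS1, the cytosolic HMG-CoA synthase, at 85.4 ± 2.0. The lowest were MVK at 3.60 ± 0.078, HSD17B7 at 3.26 ± 0.064 and CYP51A1 at 2.59 ± 0.16. In the H2A.X experiment HMGCS1 was highest in WT at D0, at 194 ± 2.9 (SD, n = 2), and CYP51A1 again lowest, at 0.644 ± 0.49. For CYP51A1, 74.1% of the exonic bases are shared with exons of other annotated genes. The share was 37.7% for HMGCS1, 36.4% for EBP and 22.2% for ACAT2, so levels per exon length are approximate for these. In bulk RNA, fewer cells of a type and less RNA per cell cannot be told apart.

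The first comparison, BAZ1B KO against WT, asks what loss of the kinase does to the transcriptome. At D0 the 28 genes were close to equal in both genotypes. None of the 28 was called by edgeR, where 1.25% of all genes tested were called higher and 2.64% lower. DESeq2 also called 0, where it called 2.01% of all genes higher and 3.29% lower. At an unadjusted p below 0.05, 2 genes were lower and 0 higher. For counts at an unadjusted p, here and below, the share over all genes was not counted. The median log2 fold change of the 28 was 0.04, against 0.00 over all genes tested, and the values ran from −0.22 for HMGCS1 (SE 0.07) to 0.22 for SREBF1 (SE 0.11).

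At D6 much of the pathway was higher in BAZ1B KO. Of the 28 genes, 14 were called higher and 0 lower, where 6.87% of all genes tested were called higher and 5.97% lower. DESeq2 also called 14 higher and 0 lower, where it called 8.21% of all genes higher and 6.7% lower. At an unadjusted p below 0.05 edgeR gave 22 higher and 0 lower. The log2 fold change was positive for 27 of the 28, with a median of 0.24 against 0.00 over all genes tested. By role, the calls covered 4 of 7 genes up to farnesyl diphosphate, 2 of 3 from there to lanosterol, 2 of 8 from lanosterol onward, 1 of 5 of sensing and transport and 5 of 5 of fatty acid synthesis. The changes were small to moderate, between 1.13-fold for SQLE and 1.87-fold for FASN, and none reached an absolute log2 fold change of 1.5.

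**Figure D1:**
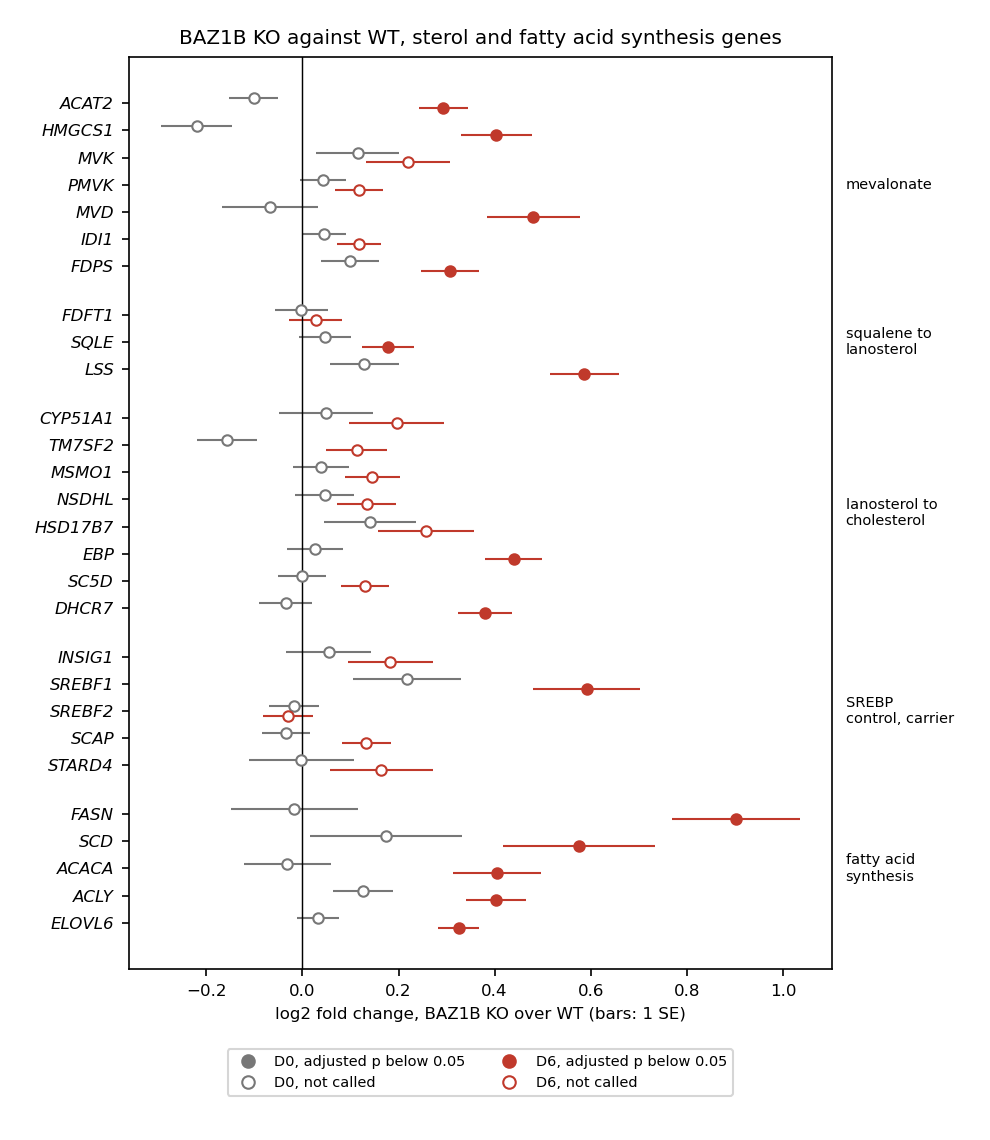
Log2 fold change of BAZ1B KO over WT (horizontal axis, bars are 1 SE) for the 28 genes in pathway order, at D0 in grey and at D6 in red, with filled points where the adjusted p is below 0.05. The D0 points lie around 0 and none is filled, whereas 14 of the D6 points are filled and 27 lie to the right of 0.

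By role, the fatty acid enzymes had the highest median log2 fold change, 0.40, and among single genes FASN had the largest. FASN, the fatty acid synthase on chromosome 17 (chr17:82078338-82098294, minus strand, hg38), had 25769, 23326 and 27956 normalized counts in the WT libraries at D6 and 35114, 56868 and 52055 in the KO libraries. Every KO library was above every WT library, with replicate 1 the lowest of KO. The log2 fold change was 0.90 (SE 0.13, adjusted p = 0.000751).
SCD, which introduces the double bond of oleate, had 43394, 37429 and 44997 normalized counts in WT and 42157, 73150 and 72205 in KO. Its KO replicate 1 lay among the WT libraries, so the groups overlapped although the gene was called (log2 fold change 0.58, SE 0.16, adjusted p = 0.031). The SCD call was lost when any WT library of D6, or KO replicate 2 or 3 of D6, was left out, and in a fit to the D6 libraries alone.

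ACACA, the acetyl-CoA carboxylase that makes malonyl-CoA, had 4423, 4351 and 4825 normalized counts in WT at D6 and 4883, 6493 and 6638 in KO. The lowest KO library was just above the highest WT library (log2 fold change 0.40, SE 0.09, adjusted p = 0.0108), and the call was lost without WT replicate 2 or without KO replicate 3 of D6. ACLY had 17129, 16746 and 16933 in WT and 19523, 24373 and 23282 in KO. Its WT libraries were tightly grouped and all KO libraries were above them, and its log2 fold change stood at 0.40 (SE 0.06, adjusted p = 0.00109). ELOVL6, the elongase that takes palmitate to stearate, had 10222, 9564 and 10325 normalized counts in WT and 12041, 12788 and 12905 in KO. The groups were apart, and the log2 fold change was 0.33 (SE 0.04, adjusted p = 0.000355).

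Of the genes up to farnesyl diphosphate, MVD, the decarboxylase that yields isopentenyl diphosphate, changed most. It had 3842, 3558 and 3991 normalized counts in WT at D6 and 4406, 6257 and 5239 in KO, which did not overlap (log2 fold change 0.48, SE 0.10, adjusted p = 0.00588). HMGCS1 had 17308, 16242 and 16220 in WT and 22532, 23209 and 20112 in KO, a log2 fold change that came to 0.40 (SE 0.07, adjusted p = 0.00348). Here KO replicate 1 was not the lowest of its group, and the groups were again apart. FDPS, the farnesyl diphosphate synthase, had 10150, 9640 and 10295 in WT and 11040, 13215 and 12966 in KO (log2 fold change 0.31, SE 0.06, adjusted p = 0.0051). ACAT2, which joins acetyl-CoA units in the cytosol, had 7654, 7407 and 7743 in WT and 8521, 9873 and 9551 in KO (log2 fold change 0.29, SE 0.05, adjusted p = 0.00236). Neither of these overlapped between genotypes. The kinases MVK and PMVK and the isomerase IDI1 were not called, with log2 fold changes of 0.22, 0.12 and 0.12.

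Of the genes from farnesyl diphosphate to lanosterol, LSS, the lanosterol synthase, had 4408, 4247 and 4803 normalized counts in WT at D6 and 6156, 7565 and 6503 in KO. This was a difference of 1.5-fold with no overlap (log2 fold change 0.59, SE 0.07, adjusted p = 2e-04). SQLE had 20803, 20130 and 20317 in WT and 20995, 24788 and 23490 in KO. Its KO replicate 1 was barely above WT, the log2 fold change was 0.18 (SE 0.05, adjusted p = 0.0476), and the call was lost in 10 of 12 fits that left out a library. FDFT1 had a log2 fold change of 0.03 and overlapping groups.

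From lanosterol onward, EBP and DHCR7 were called. EBP, a sterol isomerase, had 915, 858 and 923 normalized counts in WT at D6 and 1144, 1300 and 1214 in KO, well apart (log2 fold change 0.44, SE 0.06, adjusted p = 0.000413). DHCR7, the reductase that makes cholesterol from its dehydro form, had 4779, 4198 and 4480 in WT and 5418, 6182 and 5918 in KO, also apart (log2 fold change 0.38, SE 0.06, adjusted p = 0.000784). The other 6, CYP51A1, TM7SF2, MSMO1, NSDHL, HSD17B7 and SC5D, had log2 fold changes between 0.11 and 0.26 and adjusted p between 0.113 and 0.287.

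Among the genes of sterol sensing, SREBF1 was called and its relative SREBF2 was not. SREBF1, whose products are best known for driving fatty acid synthesis, had 11736, 10310 and 13015 normalized counts in WT at D6 and 14617, 19846 and 18379 in KO. All KO libraries were above WT (log2 fold change 0.59, SE 0.11, adjusted p = 0.00366). SREBF2, best known for sterol synthesis, had 13815, 13365 and 15374 in WT and 13324, 14044 and 14318 in KO and was the gene with a negative value (log2 fold change −0.03, SE 0.05, adjusted p = 0.772). SCAP, INSIG1 and STARD4, a carrier of sterol between membranes, had log2 fold changes of 0.13, 0.18 and 0.16 and were not called.

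**Figure D2:**
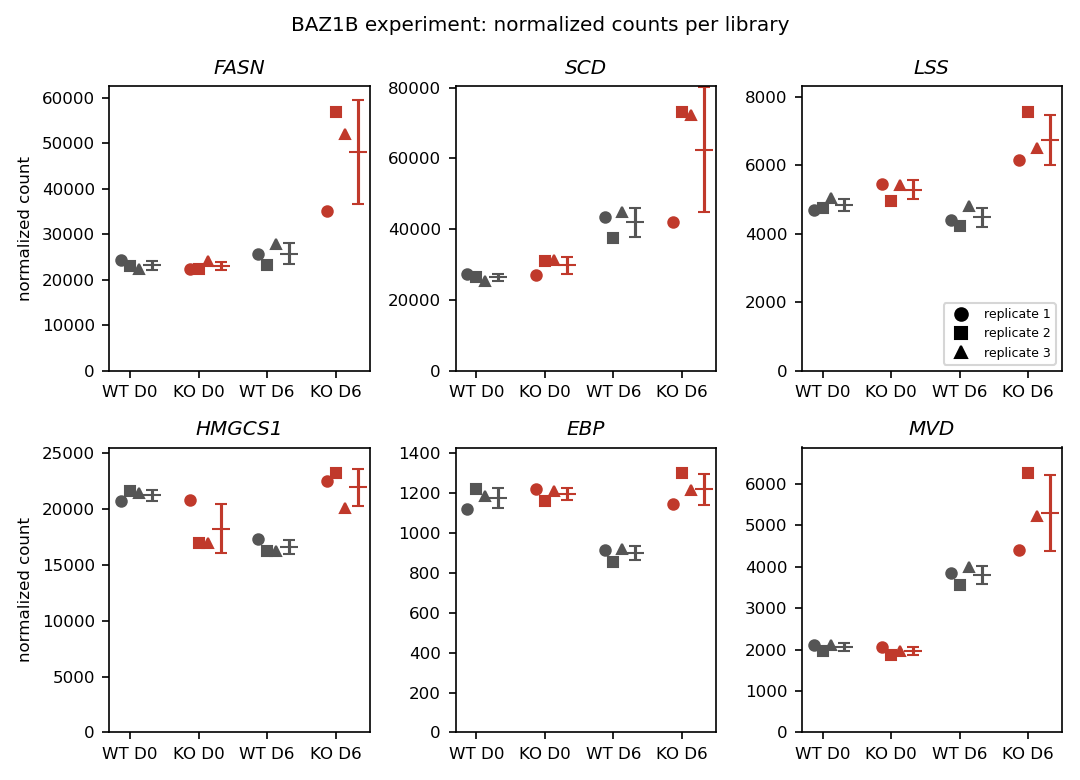
Normalized counts (vertical axis, from 0) of 6 genes in every library of the BAZ1B experiment, WT in grey and KO in red, with a marker shape for each replicate number and the mean and SD beside each group. FASN, LSS, EBP, HMGCS1 and MVD separate KO from WT at D6 and SCD does not, because its KO replicate 1 lies among the WT libraries.

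The size of the D6 difference varied between the KO libraries. The median over the 28 genes of the log2 ratio to the WT mean was 0.12 in KO replicate 1, 0.36 in replicate 2 and 0.29 in replicate 3. At D0 the same medians were 0.01, 0.02 and 0.05. Without KO replicate 1 of D6, 17 of the 28 genes were called higher, where 6.29% of all genes were. Over all 12 fits that left out a library the count was between 11 and 17 with 0 lower, where 4.14% to 9.13% of all genes were higher. In 11 of the 14 genes called, the call held in each of these fits and under 8 other settings, SQLE, SCD and ACACA being the others. The stricter cutoffs (adjusted p below 0.001, absolute log2 fold change above 1.5) are not among those 8 and left 0 of the 14. Together the 28 genes took 0.581% to 0.629% of all counts in WT at D6, and 0.685%, 0.892% and 0.831% in KO. Markers of maturation moved as well at D6. Of the 18 erythroid markers, 7 were called lower in KO and 0 higher, and their summed normalized counts were between 2362250 and 2698750 in WT and between 2009410 and 2309000 in KO. For the mast cell and eosinophil markers, 1 of 7 tested was called higher and 0 lower, and the sums were 7284 to 7971 in WT and 7353 to 14138 in KO. The part of either in the synthesis genes was not tested.

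Neighbouring pathways were counted beside the 28 genes at D6. Of 26 genes tested of fatty acid activation, elongation and desaturation, 7 were higher and 1 lower, beside the 6.87% and 5.97% of all genes tested, which hold for the next 4 lists too. Of those called, the largest were ACACB, the mitochondrial acetyl-CoA carboxylase, at a log2 fold change near 1.06 (SE 0.11, adjusted p = 6.43e-05), ME1, the malic enzyme that supplies NADPH, with 0.59 (SE 0.15, adjusted p = 0.0183), and ACSL5, an acyl-CoA synthetase, with −0.61 (SE 0.14, adjusted p = 0.011). Of 19 genes of sterol uptake, efflux, storage and trafficking, 6 were higher and 0 lower. Of 17 other enzymes of the sterol and isoprenoid branches, 2 were higher and 0 lower. Of 16 genes of SREBP processing and sterol sensing, 1 was higher and 0 lower. Of 18 genes of fatty acid oxidation, 3 were higher and 1 lower. The median log2 fold changes of these lists were 0.18, 0.07, 0.04, 0.01 and −0.02, against 0.24 for the 28 genes.

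Whether the BAZ1B KO effect differed between days was tested directly, by subtracting the D0 effect of KO from its D6 effect. The difference was called positive for 7 of the 28 genes and negative for 0, where 1.58% of all genes tested were called positive and 0.893% negative. DESeq2 called 9 positive and 0 negative, where it called 3.21% of all genes positive and 1.82% negative. At an unadjusted p below 0.05 edgeR gave 14 and 0. The difference was positive for 27 of the 28, with a median of 0.19. FASN showed the largest, at 0.92 (SE 0.19, adjusted p = 0.0241), since at D0 its counts were 24305, 23042 and 22364 in WT and 22436, 22442 and 24025 in KO. HMGCS1 differed by 0.62 (SE 0.11, adjusted p = 0.00987). At D0 it had 20709, 21629 and 21455 in WT and 20804, 16998 and 16956 in KO, so its libraries were in part lower in KO before maturation. LSS differed by 0.46 (SE 0.10, adjusted p = 0.0341), DHCR7 by 0.42 (SE 0.08, adjusted p = 0.0185) and EBP by 0.41 (SE 0.08, adjusted p = 0.0229).
ACAT2 differed by 0.39 (SE 0.07, adjusted p = 0.0154) and ELOVL6 by 0.29 (SE 0.06, adjusted p = 0.0266). At D0, LSS had 4702, 4769 and 5036 normalized counts in WT and 5456, 4966 and 5441 in KO, and DHCR7 had 5039, 5036 and 4840 in WT and 5010, 4631 and 4918 in KO. EBP had 1121, 1222 and 1185 in WT and 1221, 1163 and 1209 in KO. The groups overlapped for these. ELOVL6 had 9443, 9402 and 9087 in WT and 9179, 9550 and 9839 in KO, which overlapped too, and ACAT2 had 7480, 7223 and 7288 in WT and 7123, 6638 and 6740 in KO. Of the 7 genes, ACAT2 was the one with groups apart at D0, lower in KO and not called. The count moved with single libraries, as did the share over all genes. It was between 1 and 4 when any 1 of the 6 WT libraries was left out, without KO replicate 3 of D0 or without KO replicate 3 of D6. In these fits 0.553% to 0.94% of all genes were positive. It was 12 without KO replicate 1 of D6, where 1.65% of all genes were positive. HMGCS1 alone kept its call in every fit that left out a library.

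Maturation itself was compared as D6 against D0 within each genotype. In WT of the BAZ1B experiment, 10 of the 28 genes rose and 10 fell, where 33.5% of all genes tested rose and 35.4% fell, and the median was −0.04. Of the genes of sensing and transport, 4 of 5 rose and SCAP fell, and 5 of the 7 enzymes called from lanosterol onward fell. SREBF1 had 5215, 5037 and 4829 normalized counts at D0 and 11736, 10310 and 13015 at D6 (2.33-fold, with an SE of 0.11 on the log2 scale, adjusted p = 6.15e-07). INSIG1 had 5271, 5264 and 5302 at D0 and 10084, 9368 and 11051 at D6 (0.95, SE 0.09, adjusted p = 7.49e-07). MVD had 2107, 1957 and 2123 at D0 and 3842, 3558 and 3991 at D6 (0.88, SE 0.10, adjusted p = 4.01e-06). All of the D6 libraries were above all of the D0 libraries for these genes.
STARD4 rose by a log2 fold change of 0.80, SCD by 0.67, MSMO1 by 0.43, NSDHL by 0.30, FDFT1 by 0.21, SREBF2 by 0.19 and ELOVL6 by 0.11. HSD17B7, a reductase of the demethylation steps, fell by 0.79, PMVK fell by 0.68, TM7SF2 fell by 0.54, EBP fell by 0.39, HMGCS1 fell by 0.36, SCAP fell by 0.33, IDI1 fell by 0.25, SC5D fell by 0.20, and SQLE and DHCR7 fell by 0.15 each, all on the log2 scale.

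In BAZ1B KO, 17 of the 28 genes rose and 5 fell, where 33.2% of all genes tested rose and 34.5% fell, and the median was 0.25. SREBF1 had 5133, 6259 and 6142 normalized counts at D0 and 14617, 19846 and 18379 at D6 (a log2 difference of 1.59, SE 0.11, adjusted p = 5.21e-08). MVD had 2066, 1869 and 1971 at D0 and 4406, 6257 and 5239 at D6 (1.43, SE 0.10, adjusted p = 4.39e-08). INSIG1 had 5261, 5464 and 5726 at D0 and 9625, 12217 and 12799 at D6 (1.07, SE 0.09, adjusted p = 2.34e-07). None of these overlapped between days. SCD had a log2 fold change of 1.07 as well and FASN of 1.06, FASN having been at 0.14 and not called in WT. The 5 that fell were HSD17B7, PMVK, TM7SF2, IDI1 and SCAP, which had also fallen in WT. All 18 erythroid markers rose and all 7 mast cell and eosinophil markers tested fell between the days in both genotypes.

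**Figure D3:**
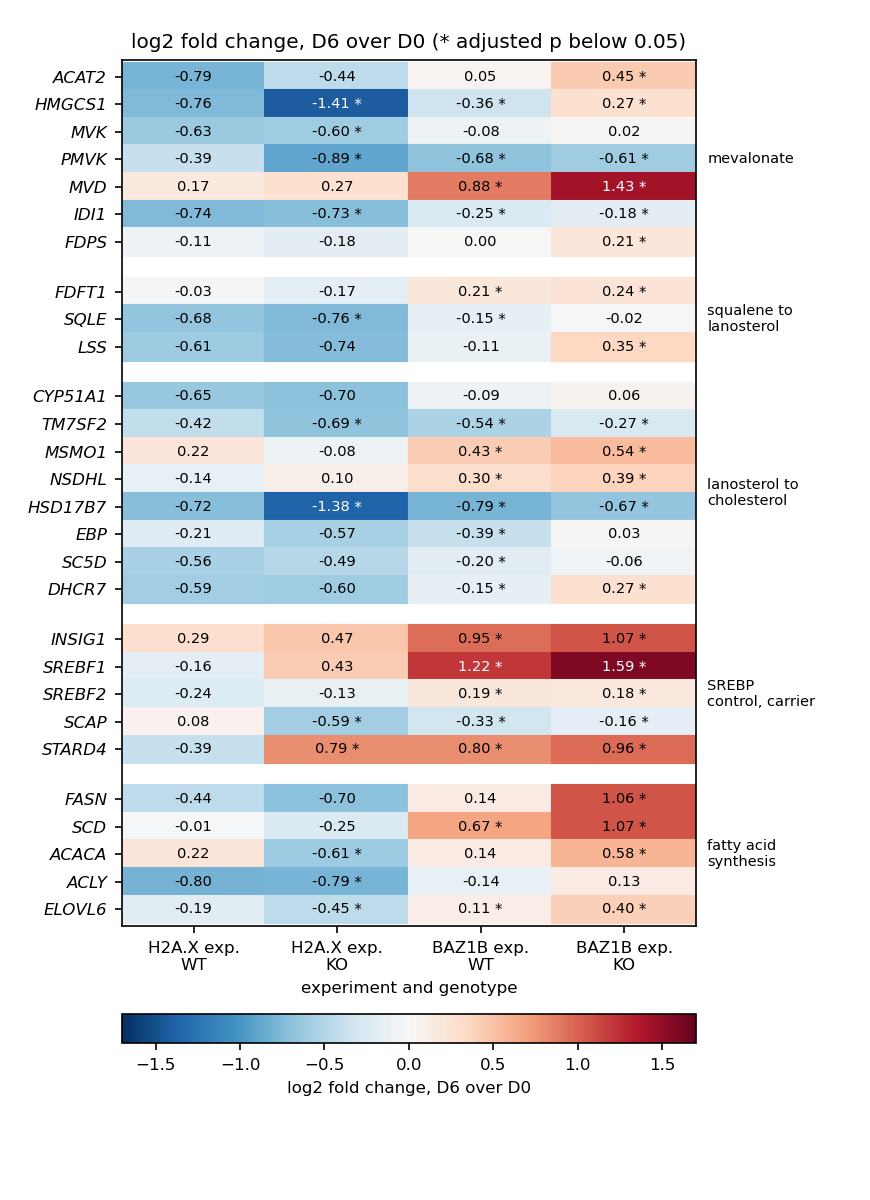
Log2 fold change of D6 over D0 for the 28 genes (rows, in pathway order) in WT and KO of both experiments (columns), with the value in each cell and an asterisk where the adjusted p is below 0.05. INSIG1, SREBF1, STARD4, MVD and SCD are red in both BAZ1B columns, whereas most of the cells in both H2A.X columns are blue.

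The same comparison in the H2A.X experiment gave mostly negative values. In WT, 23 of the 28 log2 fold changes were negative, with a median of −0.39 against 0.01 over all genes tested. Of the 28, 0 rose and 0 fell by edgeR, where 0.839% of all genes tested rose and 1.16% fell, and 5 genes were lower at an unadjusted p below 0.05. Same-numbered WT libraries deviated together across days, with a correlation of 0.548. With 2 libraries a day both numbers give this same value, and no label states that they are pairs. With the same-numbered libraries taken as pairs and a term for the pair, ACAT2, IDI1, SQLE and ACLY fell and 0 rose. In that fit 4.4% of all genes rose and 4.11% fell. DESeq2 without that term called 4 lower as well, where it called 3.5% of all genes higher and 4.56% lower. ACLY had 7328 and 6132 normalized counts at D0 and 4552 and 3180 at D6, and SQLE had 10003 and 11010 at D0 and 7177 and 5964 at D6. Both were lower in each D6 library than in either D0 library, and their paired log2 fold changes were −0.82 (SE 0.16, adjusted p = 0.0222) and −0.68 (SE 0.15, adjusted p = 0.0338). The count without the pair term was 1 without KO replicate 1 or 2 of D6, where 1.39% and 2.12% of all genes fell. It was 5 without KO replicate 3 of D6, where 2.9% of all genes fell.

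In H2A.X KO, 1 of the 28 genes rose and 11 fell, where 14.8% of all genes tested rose and 16.1% fell, and the median was −0.58. With the pair term, 1 rose and 17 fell, where 18.2% of all genes rose and 20.3% fell. HMGCS1 had 25618, 23236 and 28015 normalized counts at D0 and 5715, 6464 and 16653 at D6 (a log2 difference of −1.41, SE 0.38, adjusted p = 0.019). HSD17B7 had 254, 246 and 200 at D0 and 64, 85 and 120 at D6 (−1.38, SE 0.28, adjusted p = 0.0051). PMVK had 713, 638 and 678 at D0 and 336, 267 and 491 at D6 (−0.89, SE 0.24, adjusted p = 0.019). The days were apart for each, with replicate 3 the highest at D6. ACLY, SQLE, IDI1, TM7SF2, ACACA, MVK, SCAP and ELOVL6 fell too, with log2 fold changes between −0.79 and −0.45. STARD4 was the gene that rose (0.79, SE 0.27, adjusted p = 0.0499), with 869, 952 and 862 at D0 and 908, 2279 and 1463 at D6, which overlapped, and that call was lost in 9 of 10 fits that left out a library. The total called was 5 to 7 without any 1 of the D0 KO libraries or without KO replicate 1 or 2 of D6. In these fits 8.82% to 13% of all genes rose and 11.4% to 14.9% fell. IDI1, SQLE, HSD17B7, SCAP and ACLY, 5 of the 12 genes called, were called in every fit that left out a library.

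H2A.X KO was compared with WT at D0 and D6 to ask what loss of the histone does, and here the genes did not move together. At D0, 6 of the 28 were called higher and 3 lower, where 18.4% of all genes tested were called higher and 16.7% lower. At D6, 3 were called higher and 5 lower, where 22.2% were called higher and 20.9% lower. Both counts are near or below those shares, and the medians of the 28 were 0.21 and 0.15 against 0.01 and −0.01 over all genes tested. With WT replicate 1 or 2 of the compared day left out, 1 WT library remained on that day and was assumed to vary like the other groups. The calls then depended on which WT library stayed, so only medians are given for these fits. No call of the main fit between H2A.X genotypes, at either day, held in every fit that left out a library. The medians of the 28 were 0.23 at D0 and 0.07 at D6 without replicate 2, and 0.18 and 0.34 without replicate 1. The D0 total was 3, 3 and 2 without KO replicate 1, 2 or 3. In these fits 11.3% to 12.6% of all genes were higher and 8.19% to 9.76% lower. At D6 the total was 5 without KO replicate 2, where 19.1% were higher and 16.9% lower. MVD and ACACA kept their D0 calls without any 1 of the D0 KO libraries. PMVK, MVD, EBP and STARD4 kept their D6 calls without any 1 of the D6 KO libraries.

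Genes up to farnesyl diphosphate leaned lower in H2A.X KO, with 6 of 7 log2 fold changes negative at D0 and 7 of 7 at D6. At D6 this lay in KO replicates 1 and 2, whose median log2 ratios to the WT mean over the 7 genes were −1.22 and −0.96, while replicate 3 had −0.04 with 3 of 7 genes above the WT mean. MVD had 1745 and 2310 normalized counts in WT at D0 against 844, 1034 and 988 in KO (a log2 difference of −1.09, SE 0.26, adjusted p = 0.0131). Its D6 libraries had 1949 and 2614 against 767, 1171 and 1523 (−0.98, SE 0.26, adjusted p = 0.014). FDPS had 6051 and 8350 against 3992, 4607 and 4353 at D0 (−0.74, SE 0.24, adjusted p = 0.0381) and 6364 and 7017 against 2869, 3322 and 5256 at D6 (−0.81, SE 0.24, adjusted p = 0.0218). Neither overlapped at either day.
PMVK was called at D6, with 740 and 897 in WT and 336, 267 and 491 in KO (−1.16, SE 0.27, adjusted p = 0.00763), and at D0 had −0.67 (adjusted p = 0.0709). Its KO libraries were all below WT at both days.

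From lanosterol onward the genes called went both ways. EBP had 1027 and 2091 normalized counts in WT at D0 against 651, 644 and 629 in KO (log2 fold change −1.28, SE 0.34, adjusted p = 0.0173), and 1133 and 1562 against 338, 323 and 637 at D6 (−1.64, SE 0.34, adjusted p = 0.00557). Its WT libraries at D0 differed by more than the lower of them differed from KO. TM7SF2, a sterol reductase, was lower at D6, with 440 and 562 in WT and 279, 380 and 206 in KO (−0.79, SE 0.26, adjusted p = 0.032). MSMO1, the methylsterol oxidase, was higher at D0, with 1018 and 981 in WT and 1638, 1643 and 1516 in KO (0.68, SE 0.21, adjusted p = 0.0334). Both were without overlap.
CYP51A1, the lanosterol demethylase, had low counts, at 73 and 22 in WT and 161, 125 and 123 in KO at D0 (1.52, SE 0.46, adjusted p = 0.0297) and 29 and 32 against 107, 87 and 59 at D6 (1.47, SE 0.49, adjusted p = 0.033). Its KO libraries were above WT at both days, on few reads. Because 74.1% of its exonic bases are shared with other genes, its counts may understate the transcript.

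Among the genes of sensing and transport, those called were higher in H2A.X KO. SREBF2 had 4094 and 2779 normalized counts in WT at D0 against 5520, 5311 and 4824 in KO (log2 fold change 0.60, SE 0.20, adjusted p = 0.0434), and 2969 and 2863 against 5004, 5527 and 3776 at D6 (0.71, SE 0.21, adjusted p = 0.0195). SCAP had 1254 and 1119 against 1623, 1824 and 1561 at D0 (0.49, SE 0.14, adjusted p = 0.0245), whereas its value at D6 was −0.18 and not called. STARD4 had 620 and 480 in WT at D6 against 908, 2279 and 1463 in KO (1.49, SE 0.32, adjusted p = 0.00646). The genotypes were apart for each of these.
Of the fatty acid enzymes, ACACA had 1034 and 654 in WT at D0 against 2008, 2192 and 2220 in KO (1.34, SE 0.22, adjusted p = 0.00537) and ELOVL6 had 4540 and 4041 against 6323, 5918 and 5975 (0.50, SE 0.15, adjusted p = 0.0259), both apart. FASN had 5564 and 2214 against 7839, 11196 and 9634 at D0, and its WT libraries were far from each other (1.30, SE 0.46, adjusted p = 0.0522). At D6 none of the 5 fatty acid enzymes was called by edgeR, and all 5 values were positive. The remaining genes, ACAT2, HMGCS1, MVK, IDI1, FDFT1, SQLE, LSS, NSDHL, HSD17B7, SC5D, DHCR7, INSIG1, SREBF1, SCD and ACLY, were not called at either day. The change in the H2A.X KO effect from D0 to D6 was called positive for 0 of the 28 genes and negative for 0, where 0.302% of all genes tested were called positive and 1.04% negative. At an unadjusted p below 0.05, 1 was positive and 2 were negative. DESeq2 called 1 negative, where it called 3.01% of all genes negative. With the pair term edgeR called 1 negative too (ACACA, −0.85, SE 0.19, adjusted p = 0.0448), where 2.58% of all genes were negative.

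**Figure D4:**
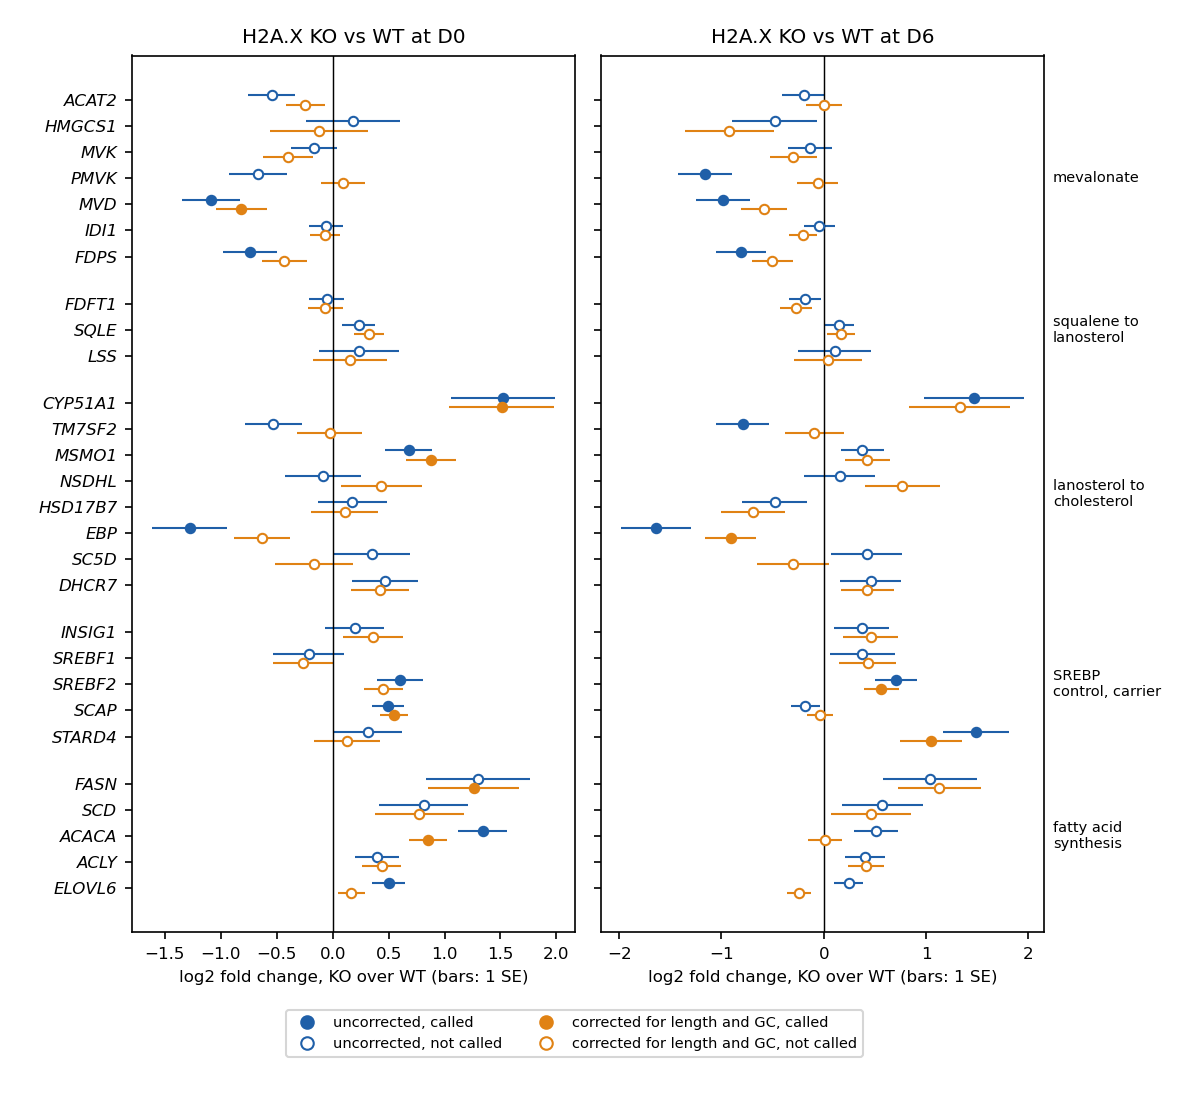
Log2 fold change of H2A.X KO over WT (horizontal axis, bars are 1 SE) at D0 and D6 for the 28 genes in pathway order, in blue as fitted and in orange after each library was corrected for transcript length and GC content, with filled points where the adjusted p is below 0.05. Filled points lie on both sides of 0, and after correction 6 points are filled at D0, FASN newly among them, and 3 at D6.

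Across all genes annotated, the H2A.X KO log2 fold change followed transcript length, with a Spearman rho of 0.43 at D0 and 0.467 at D6 over 12017 genes, and GC content, with −0.243 and −0.355, whereas the values with length in the BAZ1B experiment were −0.0181 and 0.0466. Genes are not independent replicates, and these are descriptions. PMVK, lower in KO, has 1002 exonic bases, the fewest of the 28, and ACACA, higher in KO, has 13022, the most. Others went the other way: MVK, with 9018, had negative values at both days, and MSMO1, with 2852, was higher at D0. The relation to length within the 28 was not computed. With each library corrected for length and GC content, 5 genes were higher and 1 lower at D0, and 2 higher and 1 lower at D6, where 13.7% of all genes were higher and 13.4% lower at D0 and 14.4% and 16.6% at D6. The calls of FDPS, EBP, SREBF2 and ELOVL6 at D0 and of PMVK, MVD, FDPS, CYP51A1 and TM7SF2 at D6 were lost, and upper-quartile normalization ended those of SREBF2, SCAP and ELOVL6 at D0. FASN was newly called at D0 (1.26, adjusted p = 0.0432). PMVK then had log2 fold changes of 0.10 and −0.06, TM7SF2 had −0.03 and −0.09, and EBP had −0.64 (adjusted p = 0.0822) and −0.91 (adjusted p = 0.0238). MVD had −0.82 (adjusted p = 0.0272) and −0.59 (adjusted p = 0.076), the ACACA value at D0 was 0.86 and still called, and STARD4 had 1.05 (adjusted p = 0.0287) at D6. The word Redo stands in the names of 5 of the 6 H2A.X KO columns and of 0 of the 4 WT columns. What was redone is not given in the sources used here, and it cannot be told apart from genotype. The KO column without the word is replicate 3 of D6, the library with the median of −0.04 given above for the genes up to farnesyl diphosphate. Markers of other cells moved with H2A.X genotype too. The mast cell and eosinophil markers at D0 summed to between 5878 and 6756 normalized counts in WT and between 13465 and 25569 in KO, where 4 of 6 tested were called higher, and to 4529 to 7384 and 1745 to 3872 at D6, where 2 were called lower. At D0, 11 of the 18 erythroid markers were called lower in KO and 0 higher, with sums of 668021 to 824829 in WT and 396490 to 425883 in KO. At D6, 3 were higher and 2 lower. Their part in the synthesis genes was not tested.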

How the data were processed

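The material was 22 RNA-Seq libraries of HUDEP-2 cells. The authors deposited raw counts of reads per gene, 1 column per library, without normalization. Per the processing notes, STAR 2.7.0f and Subread 1.6.4 (featureCounts) were used with hg38. The labels name an unstranded kit and the paper's methods a stranded one, so reads of overlapping and antisense genes may be assigned differently, and those of pseudogenes may be shared. The counts carry no molecular identifiers, so reads are not independent molecules.

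Counts of each experiment were filtered with filterByExpr (minimum count 10, minimum total 15) and TMM-normalized, and fitted in edgeR 4.0.16 (R 4.3.3) (quasi-likelihood, both days in 1 fit, with a coefficient for each combination of genotype and day). Tests were two-sided with Benjamini-Hochberg adjustment over all genes tested. Standard errors were derived from the F statistics. Exonic length was the union of exons in GENCODE 44, matched by gene name. Same-numbered libraries deviated together across days in the H2A.X experiment (correlations 0.272 to 0.549) and in BAZ1B KO (0.109 to 0.55). In H2A.X WT, with 2 libraries a day, both numbers give the same correlation of 0.548, which is a single comparison. The KO columns are named KO1 to KO3 at both days, and the paper numbers its KO subclones in the same way. No label states the pairing for WT, and the main fit has no term for it. The 28 genes, the 5 neighbouring lists, the markers and the motifs were chosen with earlier results of these data known. Each gene of the 28 was named, with every library's value where it was called between genotypes and for the 3 largest changes between days, and up to 2 called genes for each neighbouring list and direction. Some listed genes are not named. Alternatives were DESeq2 1.42.0, upper-quartile normalization, no filter, stricter cutoffs, the compared day alone, a replicate block, a length and GC correction, the last pair together, and each library left out. Leaving out globin genes and the values of single KO libraries were chosen after seeing the data. The scripts were also tested on simulated data.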

Additional observations from a re-analysis of the deposited data

Results flagged for a closer look

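In the BAZ1B experiment, the difference between the KO effects at D6 and D0 passed the test for 7 of the genes, which is why they are listed here. The log2 differences were 0.92 for FASN, 0.62 for HMGCS1, 0.46 for LSS, 0.42 for DHCR7, 0.41 for EBP, 0.39 for ACAT2 and 0.29 for ELOVL6. All 7 were positive, and HMGCS1 was the gene whose call did not depend on a single library.

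Some genes had maturation values of opposite sign in the separate experiments, with every D6 library on the other side of every D0 library in each. In WT this was STARD4, with a log2 fold change of −0.39 in the H2A.X experiment and 0.80 in the BAZ1B experiment, a gap of 1.18. In KO these were ACAT2 (−0.44 and 0.45, a gap of 0.89), LSS (−0.74 and 0.35, a gap of 1.09), DHCR7 (−0.60 and 0.27, a gap of 0.87), ACACA (−0.61 and 0.58, a gap of 1.19) and ELOVL6 (−0.45 and 0.40, a gap of 0.85). The tables were made and normalized separately, so these differences were not tested. How many of all genes met the same rule was not counted, and groups of 2 or 3 libraries separate easily. In H2A.X KO the days were barely apart for LSS, with 2314 normalized counts at D6 against 2321 at D0 in the nearest libraries. For ACAT2 these were 3939 and 3991. STARD4 in H2A.X WT and ACAT2, LSS and DHCR7 in H2A.X KO were not called there (adjusted p by edgeR 0.558, 0.103, 0.106 and 0.107). Experiment, KO target and library preparation cannot be told apart in these values. No group held 4 or more libraries, so single libraries were not tested for standing apart from their group.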

How the results depend on the processing

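The H2A.X experiment had 2 WT libraries a day and shallower libraries, day and medium are the same contrast, and calls near the threshold moved with single libraries. The numbers below are how many of the 28 genes were called. Percentages in parentheses are the shares of all genes called higher, then lower. For the difference between days they are positive, then negative. Where a setting moved the counts the cause was not tested, except that fewer libraries were left in some fits. Under stricter cutoffs (adjusted p below 0.001, log2 change of more than 1.5 either way), 1 gene was called for D6 against D0 in BAZ1B KO (3.9% and 7.58%) and 0 in the other 9 comparisons.

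For H2A.X KO against WT at D0, 9 genes were called (18.4% and 16.7%). The count was 14 with the libraries of that day alone (24.8% and 22.6%) and 12 without KO replicate 3 of D6 (21.9% and 20.8%). At D6 the count was 8 (22.2% and 20.9%). It was 3 with the length and GC correction (14.4% and 16.6%) and 5 without KO replicate 2 of D6 (19.1% and 16.9%). Under upper-quartile normalization at D6 the median over all genes moved by −0.11. For D6 against D0 in H2A.X WT the count was 0 (0.839% and 1.16%). It was 4 with DESeq2 (3.5% and 4.56%), 5 without the filter on low counts (2.34% and 2.64%) and 4 with the replicate block (4.4% and 4.11%). It was 5 with the block and the length and GC correction (3.85% and 3.62%), and 5 without KO replicate 3 of D6 (2.06% and 2.9%). In H2A.X KO it was 12 (14.8% and 16.1%) and 18 with the replicate block (18.2% and 20.3%). It was 5 without KO replicate 3 of D0 (8.82% and 11.4%) and 13 without KO replicate 3 of D6 (18.5% and 18.4%). For the difference between days in H2A.X it was 0 (0.302% and 1.04%), and 0 in each fit that left out a KO library. It was 1 each with DESeq2, without the filter, with the replicate block and with the block and the correction. In those settings 1.59% to 2.12% of all genes were positive and 2.16% to 3.01% negative.

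For BAZ1B KO against WT at D0 the count was 0 (1.25% and 2.64%), against 3 without the filter (1.76% and 2.66%). It was 0 to 1 without each library (0.553% to 4.16% and 1.26% to 5.2%). At D6 it was 14, all higher, where 6.87% of all genes were higher. It was 12 to 16 under the other settings apart from the stricter cutoffs (4.73% to 8.21% higher). It was 13 with the replicate block (6.92% higher) and 11 to 17 without each library (4.14% to 9.13% higher). For D6 against D0 in BAZ1B WT it was 20 (33.5% and 35.4%), 21 with the block (35.1% and 37%), and 17 to 23 without each library (30.8% to 34.7% and 32.2% to 36.5%). In KO it was 22 (33.2% and 34.5%), 22 with the block (34.2% and 36.3%), and 21 to 23 without each library (30.6% to 32.7% and 32.1% to 34.4%). For the difference between days in BAZ1B it was 7, all positive, where 1.58% of all genes were positive. It was 12 without the filter (2.24% positive), 10 with the block (3.07% positive) and 9 with DESeq2 (3.21% positive). It was 1 to 12 without each library (0.553% to 3.37% positive). In H2A.X KO against WT the block gave 11 at D0 (22% and 19.4%) and 8 at D6 (24.9% and 23.9%), and in BAZ1B 0 at D0 (1.43% and 2.79%). No label states that libraries with the same number in WT and KO belong together. In the H2A.X experiment their deviations correlated weakly, at 0.0987 and 0.128 at D0 and 0.233 and 0.198 at D6. Each WT library there matched the KO library of its own number best. In the BAZ1B experiment these correlations ran from −0.123 to 0.222. Between the days in BAZ1B WT they were 0.199, −0.0441 and 0.168. Among the genes called, a direction reversed once, for TM7SF2 in H2A.X KO against WT at D6, which was 0.0688 with the block and the length and GC correction. Leaving out the globin genes kept every count within 1.5 times.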
